A study of Mus musculus with 6 samples.

Results

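The genes described here encode the nuclear subunits of the mitochondrial respiratory chain and of ATP synthase. They were chosen by a rule on name and mean level that uses no difference between the groups: protein-coding genes whose symbol marks them as a subunit of complex I (NADH dehydrogenase), complex II (succinate dehydrogenase), complex III (cytochrome bc1), complex IV (cytochrome c oxidase) or complex V (ATP synthase). Of 36811 genes in the table, 86 protein-coding genes carried such a name and 78 of them reached a mean of 1 FPKM over the 6 libraries. FPKM is the number of sequenced fragments divided by transcript length and by library size, so levels of different genes can be set side by side per length. The 78 members comprise 37 genes of complex I, 4 of complex II, 9 of complex III, 11 of complex IV and 17 of complex V, among 11979 genes that reached the same mean. The names fit the complexes with known exceptions, which are background: the Ndufa4 protein is now placed in complex IV, Ndufab1 is also the mitochondrial acyl carrier protein, and Cox7a2l is a factor of supercomplexes.

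RNA was sequenced from splenic regulatory T cells (Treg) of C57BL/6 mice at 18 to 21 weeks of age, sorted by the EGFP reporter at the Foxp3 locus. The 3 libraries labelled cKO carry the genotype Bach2fl/fl Foxp3EGFP-Cre-ERT2, floxed alleles of the transcriptional repressor Bach2. The 3 labelled WT carry Bach2+/+ Foxp3EGFP-Cre-ERT2, so the reporter and the recombinase are common to both groups. Cre-ERT2 is expressed where Foxp3 is and needs tamoxifen to act, a treatment that is not given in the sources used here, and since nothing states that libraries came from separate mice, the spread may be technical.

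Bach2 itself was no lower in the cKO libraries, with 7.88, 9.19 and 6.44 FPKM, than in the WT libraries, with 3.29, 8.25 and 4.80 FPKM (log2 difference 0.52, standard error 0.315, 95% interval -0.24 to 1.27; limma, Benjamini-Hochberg adjusted p = 0.925). Gene-level values of this kind include exons outside a deletion, whose extent is not given, so the genotype labels could not be checked and every direction below rests on them. Of the Treg markers, Cd4 lay between 318 and 474 FPKM and Foxp3 between 5.16 and 9.44 FPKM. The depth scale estimated from the steps between low values ran from about 3040000 fragments in WT 2 to about 5040000 in cKO 2, so cKO 2 had the most and WT 2 the fewest. By that estimate at least 100 fragments lay behind every value of 68 of the 78 members, and the fewest were the 7 behind the lowest value of Atp5s.

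Complexes I to IV pass electrons from NADH and succinate through ubiquinone and cytochrome c to oxygen, and complexes I, III and IV pump protons out of the mitochondrial matrix as they do so. Complex V lets the protons back and makes ATP. All complexes but complex II combine nuclear subunits with subunits that the mitochondrial genome encodes. Treg are known for their reliance on oxidative metabolism, and transcription of the nuclear subunits is known to depend on factors such as NRF1, GABPA (an ETS factor) and YY1.

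Promoters were examined because shared letters near the start of transcription are a feature that the choice of members did not use. A RefSeq promoter of 300 bases (250 before and 50 after the start, build GRCm38.p6) was matched for 63 of the 78 members, and 15 had none. For every gene only the first listed promoter was used. The letters searched on either strand were GCGCATGC for NRF1, CCGGAAG for ETS factors, AAGATGGC for YY1 and TGANTCA for Bach2 and AP-1 factors. The 170 bases before the start are shown for 1 member of each complex, chosen after the matches were seen because each holds an ETS or an NRF1 match there. They run 5′ to 3′ toward the gene, all on the minus strand, with matches in capitals: chr2:90904722-90904891 for Ndufs3, chr9:50603850-50604019 for Sdhd, chr10:80406822-80406991 for Uqcr11, chr5:115348959-115349128 for Cox6a1 and chr5:108434400-108434569 for Atp5k.
Ndufs3: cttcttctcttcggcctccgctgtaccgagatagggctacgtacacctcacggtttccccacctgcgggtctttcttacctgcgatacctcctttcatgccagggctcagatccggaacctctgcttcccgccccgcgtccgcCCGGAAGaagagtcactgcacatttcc
Sdhd: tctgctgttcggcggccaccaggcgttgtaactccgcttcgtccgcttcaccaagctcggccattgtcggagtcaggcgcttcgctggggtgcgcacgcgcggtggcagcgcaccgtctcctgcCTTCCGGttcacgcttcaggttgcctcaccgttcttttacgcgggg
Uqcr11: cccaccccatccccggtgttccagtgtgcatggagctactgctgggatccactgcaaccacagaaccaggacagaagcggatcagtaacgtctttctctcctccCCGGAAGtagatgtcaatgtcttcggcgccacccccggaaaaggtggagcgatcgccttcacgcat
Cox6a1: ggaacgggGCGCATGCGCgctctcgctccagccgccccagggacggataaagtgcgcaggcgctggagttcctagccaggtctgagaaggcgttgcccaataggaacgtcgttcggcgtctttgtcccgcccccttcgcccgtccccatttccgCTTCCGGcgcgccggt
Atp5k: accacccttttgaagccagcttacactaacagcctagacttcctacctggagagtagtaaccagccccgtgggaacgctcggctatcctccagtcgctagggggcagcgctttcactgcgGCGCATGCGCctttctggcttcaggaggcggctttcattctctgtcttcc

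In Ndufs3 the ETS letters begin 27 bases before the start, in Sdhd 46 and in Uqcr11 66. In Cox6a1 an ETS match begins 16 bases before the start, and a palindrome of NRF1 letters gives overlapping matches on the opposite strands, which begin 162 and 160 bases before it. In Atp5k those of the same palindrome begin 50 and 48 bases before the start. The ETS letters of Sdhd and Cox6a1 lie on the other strand and read CTTCCGG here. NRF1 letters stood in 10 member promoters, 15.9% of 63 against 2.80% of 27025 promoters, the first listed of each gene. ETS letters stood in 15 (23.8% against 9.12%) and YY1 letters in 8 (12.7% against 2.88%). Any of these stood in 28 members (44.4% against 13.8%). The Bach2 and AP-1 letters stood in 7 (11.1% against 7.93%). The 27025 promoters were not matched to the members in expression or base content, so these shares do not set the subunits apart from other expressed genes. A match describes letters in this window, and no binding was measured.

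The subunits were among the more highly expressed genes of these cells. Their median mean level was 232 FPKM, against 14.1 FPKM for all genes tested, with medians of 184 FPKM in complex I, 195 in complex II, 328 in complex III, 298 in complex IV and 326 in complex V. The highest were Atp5b, the catalytic beta subunit of ATP synthase, at 2329 FPKM, and Cox4i1, a regulatory subunit of complex IV, at 1418 FPKM. Ndufa3 led complex I at 762 FPKM, Sdha led complex II at 717 FPKM and Uqcrh led complex III at 710 FPKM. The lowest member was Atp5s (coupling factor B) at 2.24 FPKM. Together the 78 genes made up 1.34%, 2.17% and 1.49% of the summed FPKM in the cKO libraries, in the order of their numbers, and 1.37%, 1.12% and 1.35% in the WT libraries, with cKO 2 highest and WT 2 lowest. The 4 highest rows of the table took their smallest share of that sum in cKO 2 (32.4%) and their largest in WT 2 (46.9%), and their part in the subunits' share was not tested.

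Of the named genes, 8 fell below the mean of 1 FPKM, alternative forms of a subunit, most of them known from other tissues such as muscle, testis or lung. Cox4i2, Cox7b2, Cox8b, Cox8c and Ndufa4l2 were listed at 0 in all 6 libraries. Cox6a2 was listed at 0.806 FPKM in cKO 2, 1.02 FPKM in cKO 3 and 0.895 FPKM in WT 1, and at 0 elsewhere. Cox6b2 was listed at 1.75, 0.869 and 2.002 FPKM across WT 1, 2 and 3 and at 0 in every cKO library. Cox7a1 was listed at 2.50 FPKM in WT 1 and at 0 elsewhere. By the estimated depth, at most 3 fragments lay behind any value of Cox6a2 or Cox6b2 and at most 4 behind that of Cox7a1. Values this low cannot tell the groups apart. The common forms Cox4i1, Cox6a1, Cox6b1, Cox7a2 and Cox8a carried the expression of these subunits. Processed pseudogenes with a member's name filled 11 further rows, which were left out, and how the authors' counting split reads between a gene and such a copy is not given. The highest, Cox6c2, lay between 117 and 287 FPKM.

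**Figure D1:**
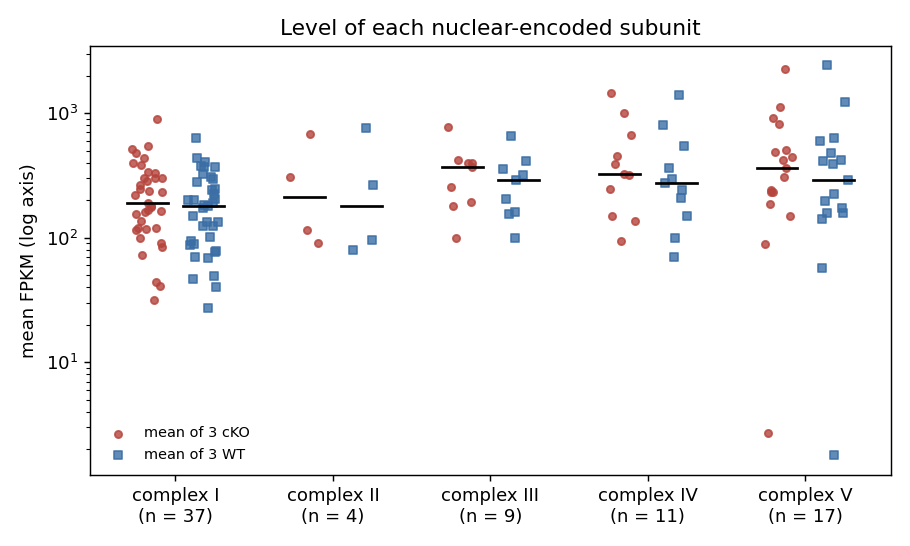
Mean FPKM (log axis) of each of the 78 subunits by complex, with circles for the mean of the 3 libraries labelled cKO, squares for the mean of the 3 labelled WT and black bars for the median of a group. The ranges of the groups overlap in each complex, and Atp5s lies far below the other members.

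No member passed the test between the libraries labelled cKO and WT. With limma on log2(FPKM + 1) and Benjamini-Hochberg adjustment over 11979 genes, 0 of 78 members had an adjusted p under 0.05, and the smallest was 0.915. Across all genes 0.00835% passed as higher and 0.0167% as lower. At an unadjusted p under 0.05, 1 member was higher (Ndufb8, 1.28% of members against 3.59% of all genes) and 0 were lower (against 1.78%). The libraries of the groups did not overlap in 4 members, Ndufb8, Ndufa8, Sdhd and Cyc1, all higher (5.13% against 6.96% of all genes), and 0 were lower without overlap (against 3.75%). In RNA from sorted populations, fewer cells of a type and less RNA per cell cannot be told apart.

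The small differences of the members lay mostly on 1 side. In 69 of 78 members the fitted log2 difference (cKO minus WT) was above 0, 88.5% against 55% of all genes tested, and its median was 0.26 against 0.03. Scaling moved these values: after quantile normalization the median was 0.15 with 60 members above 0 (all genes -0.017), and with libraries scaled to equal sums it was 0.41 with all 78 above 0 (all genes 0.17). The medians by complex were 0.27 in complex I (35 of 37 above 0), 0.20 in complex II (3 of 4), 0.26 in complex III (7 of 9), 0.32 in complex IV (10 of 11) and 0.23 in complex V (14 of 17). The 95% interval of the difference included 0 in 77 of 78 members. In 49 members its upper bound stayed under a doubling, and in the others a doubling was within the interval. The members share the same 6 libraries, so their common sign is not 78 separate observations.

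**Figure D2:**
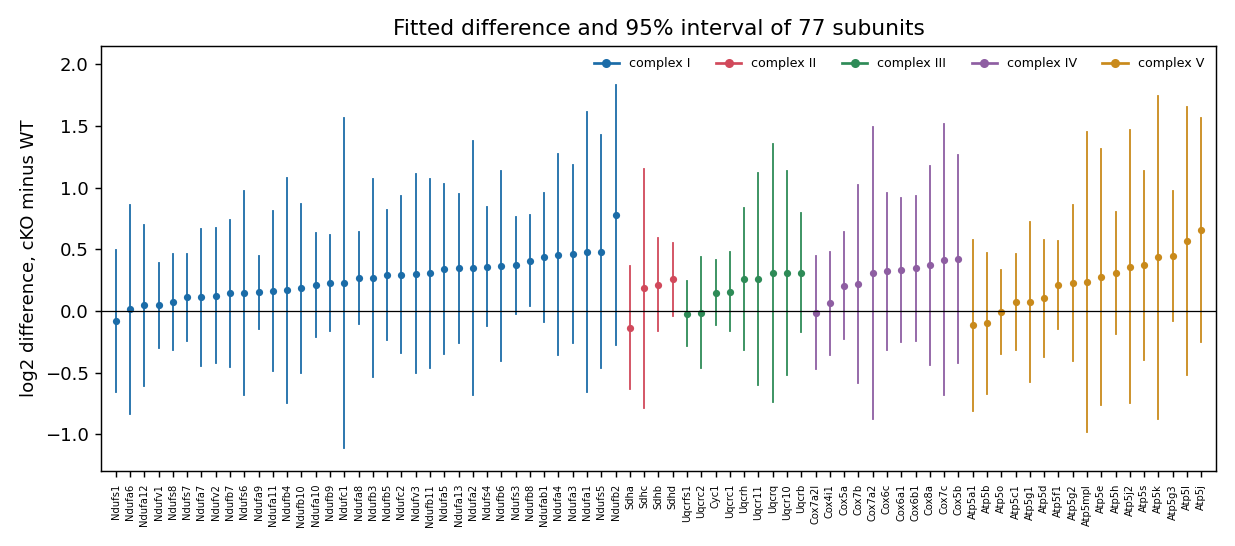
Fitted log2 difference, cKO minus WT, of 77 subunits on log2(FPKM + 1), ordered within complexes I to V, with points for the estimate and vertical lines for the 95% interval. The interval of Ndufb8 lies above 0, and those of the other subunits drawn cross it.

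In complex I, Ndufb8, an accessory subunit of the membrane arm, had the smallest p. Its level was 451, 612 and 554 FPKM across cKO 1, 2 and 3 against 433, 405 and 373 FPKM across WT 1, 2 and 3, with 837 to 2094 fragments behind each value by the estimated depth. All 3 libraries labelled cKO were above all 3 labelled WT. Its fitted log2 difference was 0.41 (standard error 0.154, 95% interval 0.039 to 0.78, limma, adjusted p = 0.915). Ndufs3, a core subunit of the arm that faces the matrix, stood at 135, 185 and 167 FPKM against 117, 115 and 143 FPKM, in the same order of libraries. WT 3 was above cKO 1, so the groups overlapped, and the difference was 0.37 (standard error 0.166).

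Ndufab1 stood at 102, 136 and 109 FPKM against 87.3, 64.5 and 108 FPKM. Its lowest value was in WT 2 and its highest in cKO 2, WT 3 was above cKO 1, and the difference was 0.44 (standard error 0.219). Ndufa3, an accessory subunit and the highest of complex I, stood at 667, 1253 and 743 FPKM against 603, 476 and 829 FPKM. The same pair of libraries gave its extremes, WT 3 was above cKO 1 and cKO 3, and the difference was 0.46 (standard error 0.303). Ndufa8, which was not picked by its p and is named because its groups did not overlap, stood at 144, 188 and 149 FPKM against 140.3, 118 and 140.5 FPKM, with a difference of 0.27 (standard error 0.155). Its lowest cKO library, cKO 1, was just above WT 1 and WT 3. The members of complex I summed to 8940 ± 2548 FPKM in the libraries labelled cKO and 7334 ± 1252 FPKM in those labelled WT (SD, n = 3 each), a difference within the spread.

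Complex II, which links the citric acid cycle to the chain, had the smallest median difference of the 5 complexes. Sdhd, a membrane anchor, stood at 105, 128 and 111 FPKM against 93.1, 96.6 and 96.6 FPKM. All 3 libraries labelled cKO were above those labelled WT, and the difference was 0.26 (standard error 0.125, 95% interval -0.043 to 0.55). Sdhb, the iron-sulfur subunit, stood at 251, 354 and 319 FPKM against 273, 248 and 268 FPKM, with cKO 1 inside the range of the WT libraries and a difference of 0.21 (standard error 0.158). Sdhc, the other membrane anchor, stood at 56.98, 134 and 81.4 FPKM against 77.4, 47.7 and 114 FPKM. Its highest and lowest values were again cKO 2 and WT 2, and the difference was 0.18 (standard error 0.405).

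Sdha, the flavoprotein and the longest transcript of the members at 2900 bases, had the opposite order, at 743, 555 and 743 FPKM against 735, 924 and 599.9 FPKM. WT 2 was its highest library and cKO 2 its lowest, and the difference was -0.14 (standard error 0.209). Sdha outweighs the other members, so the sums of complex II were nearly equal, at 1193 ± 53.1 FPKM against 1191 ± 119 FPKM (SD, n = 3 each). No member of complexes II to V had an adjusted p (limma, Benjamini-Hochberg) below 0.925.

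In complex III, Uqcrb, a small subunit near the ubiquinone site, stood at 166, 234 and 175 FPKM against 152, 126 and 186 FPKM. Its difference was 0.31 (standard error 0.202), with WT 3 above cKO 1 and cKO 3. Cyc1, cytochrome c1, which hands electrons to cytochrome c, had the smallest standard error of the members described, at 171, 179 and 184 FPKM against 153, 167 and 163 FPKM. Its groups did not overlap, and the difference was 0.15 (standard error 0.111, 95% interval -0.12 to 0.41). Uqcrc1, a core protein, stood at 381, 378 and 421 FPKM against 365, 388 and 309.7 FPKM, where WT 2 lay inside the range of the cKO libraries. Uqcrh, the hinge protein, stood at 586, 891 and 839 FPKM against 595, 518 and 832 FPKM, and WT 3 came close to cKO 2 and cKO 3. Their differences were 0.16 (standard error 0.135) and 0.26 (standard error 0.242), and the sums of complex III were 3076 ± 659 FPKM against 2640 ± 305 FPKM (SD, n = 3 each).

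In complex IV the nuclear members surround the catalytic core that the mitochondrial genome encodes. Cox6b1 stood at 817, 1175 and 1035 FPKM against 818, 579.5 and 1019 FPKM, a difference of 0.35 (standard error 0.246). Cox6a1 stood at 361, 575 and 423 FPKM against 374, 271 and 437 FPKM, a difference of 0.33 (standard error 0.244). In each, cKO 2 was the highest library and WT 2 the lowest, and cKO 1 and cKO 3 lay inside or near the range of WT 1 and WT 3. Cox6c stood at 503, 816 and 696 FPKM against 528, 397 and 699.8 FPKM, a difference of 0.32 (standard error 0.266), beside the pseudogene Cox6c2 named above. Cox4i1 stood at 1202, 1585 and 1567 FPKM against 1406, 1209.8 and 1538 FPKM, and its groups covered nearly the same range, with a difference of 0.064 (standard error 0.175). The sums of complex IV were 5242 ± 1204 FPKM against 4430 ± 954 FPKM (SD, n = 3 each).

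In complex V, Atp5j, coupling factor 6 of the stalk, had the largest fitted difference of the complex. It stood at 671, 1291 and 793 FPKM against 578, 353 and 864 FPKM, where WT 3 was above cKO 1 and cKO 3. The difference was 0.65 (standard error 0.380, 95% interval -0.25 to 1.56). Atp5h, subunit d of the stalk, stood at 373, 592 and 488 FPKM against 389, 332 and 441 FPKM, with cKO 1 inside the range of the WT libraries and a difference of 0.31 (standard error 0.206). Atp5b stood at 2633, 1711 and 2397 FPKM against 2181, 3040.5 and 2010.5 FPKM. Here WT 2 was the highest library and cKO 2 the lowest, as in Sdha, and the difference was -0.10 (standard error 0.241). The sums of complex V were 8757 ± 977 FPKM against 7954 ± 315 FPKM (SD, n = 3 each).

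Some subunits have alternative genes. The c subunit of the membrane rotor is encoded by Atp5g1, Atp5g2 and Atp5g3, whose mature proteins are the same. Atp5g3 was the highest, at 223, 340.2 and 357 FPKM against 226, 187 and 254 FPKM, a difference of 0.44 (standard error 0.221). It made up 48.0% ± 3.55 of the FPKM of the 3 genes in the libraries labelled cKO and 43.0% ± 2.20 in those labelled WT (SD, n = 3 each), with cKO 2 at 44.2% inside the range of the WT libraries. Atp5g1 stood at 107, 198 and 144 FPKM against 146, 106 and 169.7 FPKM, and its share was 23.2% ± 2.52 against 26.9% ± 1.97. Atp5g2 stood at 131, 231 and 195 FPKM against 136, 132 and 204 FPKM, with shares of 28.8% ± 1.08 against 30.1% ± 3.04. The log2 differences of Atp5g1 and Atp5g2 were 0.074 (standard error 0.272) and 0.23 (standard error 0.265).

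Cox7a2 and Cox7a2l encode related proteins and differed in their order of libraries. Cox7a2 stood at 66.8, 246 and 98.4 FPKM against 103, 64.4 and 128 FPKM, highest by far in cKO 2. Cox7a2l stood at 119, 165 and 161 FPKM against 122, 162 and 165 FPKM, with nearly equal ranges. Cox7a2 thus made up 59.8% of the summed FPKM of the Cox7a genes in cKO 2 and 28.4% in WT 2, and between 35.97% and 45.3% in the other libraries. Their differences between the groups were 0.31 (standard error 0.495) and -0.014 (standard error 0.191). Cox8a, whose other forms were listed at 0, stood at 256, 534 and 373 FPKM against 305, 199 and 386 FPKM. Ndufa4 stood at 329, 739.7 and 479 FPKM against 349.9, 267 and 482 FPKM. Both were highest in cKO 2 and lowest in WT 2, with differences of 0.37 (standard error 0.338) and 0.46 (standard error 0.341).

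Across the members, single libraries differed more than the groups did. Relative to each gene's mean over the 6 libraries, the median member lay at -0.24, 0.48 and 0.13 (log2) across cKO 1, 2 and 3, against -0.098, -0.42 and 0.13 across WT 1, 2 and 3. The cKO and WT libraries overlap in this order, since cKO 1 was below WT 1 and WT 3, and the extremes were cKO 2 and WT 2. The library cKO 2 was the highest in 60 of 78 members, WT 2 was the lowest in 49, and both held in 47. These libraries also had the highest and the lowest estimated depth, whose part was not tested. Among all 11979 genes the same counts were 3038, 2101 and 1024. The median ratio of cKO 2 to WT 2 was 1.93 over the members and 1.002 over all genes tested. Over other protein-coding genes of 300 to 1200 bases it was 1.39, with cKO 2 the highest library in 835 of 1728. It was 0.92 over longer ones and 1.52 over genes named for mitochondrial ribosomal proteins, so a ratio above that of all genes was not particular to the subunits. In Sdha, Atp5a1 and Atp5b, by contrast, WT 2 was the highest library and cKO 2 the lowest.

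**Figure D3:**
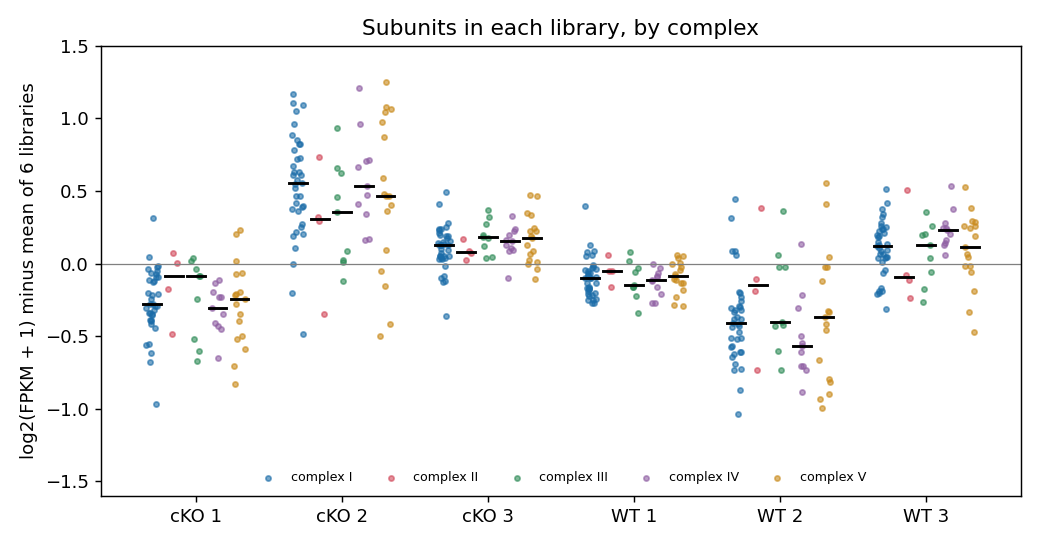
Level of each subunit in each library as log2(FPKM + 1) minus the gene's mean over the 6 libraries, with 1 point per subunit coloured by complex and black bars for the median of a complex. The subunits sit high in cKO 2 and low in WT 2 in every complex, and the median of cKO 1 lies below that of WT 3 in all complexes but complex II.

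Transcript length moved with this order of libraries. The members have short transcripts, with a median of 685.5 bases against 2141.5 for all genes tested and 51.3% under 700 bases against 12.9%. Across the 78 members, Pearson's r between log2 transcript length and the level relative to the gene's mean was 0.73, -0.75 and -0.088 across cKO 1, 2 and 3, and 0.12, 0.78 and -0.71 across WT 1, 2 and 3. In other protein-coding genes (9984) it was 0.23, -0.35 and -0.054, and 0.043, 0.26 and -0.055. These are descriptions across genes of the same 6 libraries, in values that were themselves divided by length. Short members were thus high in cKO 2 and WT 3 and low in cKO 1 and WT 2, whereas Sdha, Atp5a1 and Atp5b, with the opposite order of cKO 2 and WT 2, are long, from 1916 bases in Atp5b to 2900 in Sdha.

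With members split at 1200 bases, a bound chosen after the values were seen, the 60 shorter ones had a median log2 difference of 0.28 between the groups and 58 of them lay above 0. The 18 longer ones, which include Cyc1, Uqcrc1, Sdhd and Atp5b, had a median of 0.15, and 11 lay above 0. The shorter members had medians of 0.62 in cKO 2 and -0.47 in WT 2 relative to the gene's mean. The longer ones went both ways between these libraries, with 9 of 18 higher in cKO 2 than in WT 2 and medians of 0.015 and 0.057. Among other protein-coding genes of 300 to 1200 bases (1728 genes) the median log2 difference was 0.13 with 70.5% above 0, and among longer ones (8256 genes) it was 0.011 with 52.0% above 0.

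**Figure D4:**
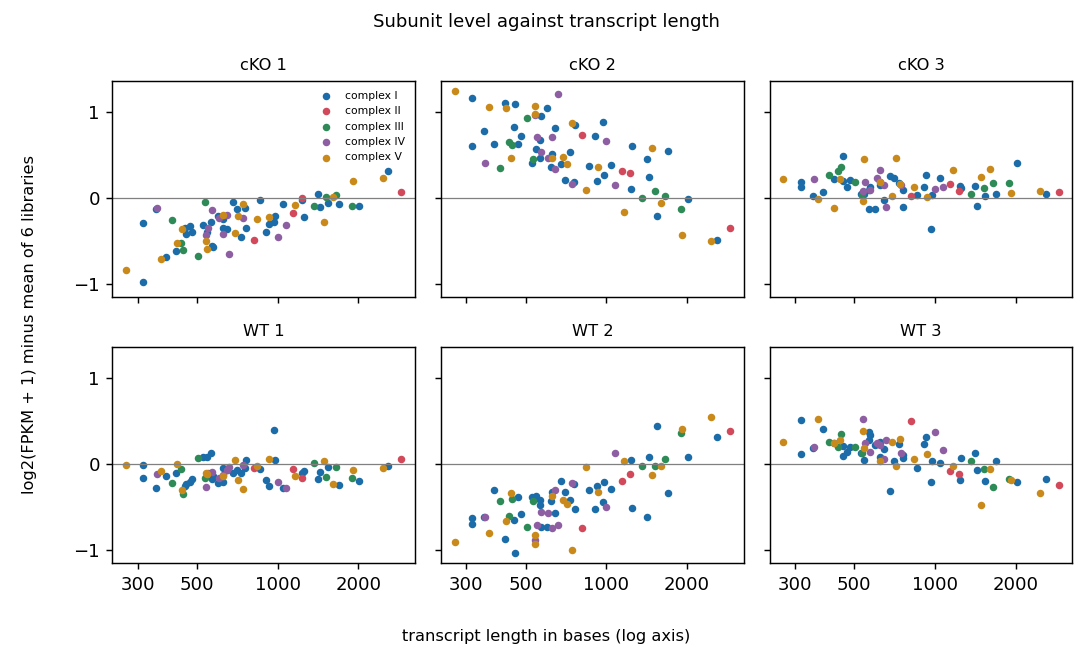
Level of each of the 78 subunits in each library, as log2(FPKM + 1) minus the mean of the 6 libraries, against transcript length in bases (log axis), with colours for complexes I to V. Most short subunits lie above 0 in cKO 2 and below 0 in cKO 1 and WT 2, and the slopes of cKO 2 and WT 2 run in opposite directions.

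The median difference of the members changed when cKO 2 or WT 2 was left out and when length and GC content were corrected for. The part of length was not tested apart from other traits of these libraries. A correction of each library for transcript length and GC content left a median of 0.12 over the members, with 58 of 78 above 0, against -0.0044 over all genes. Without cKO replicate 2 the median was 0.053 with 49 members above 0, and without WT replicate 2 it was 0.11 with 63 above 0. With both of these libraries left out, an alternative added after seeing the data, it was -0.050 with 28 members above 0. Without cKO replicate 1, in contrast, it was 0.48, and without WT replicate 3 it was 0.41. The differences of Sdha, Cox4i1, Atp5b, Cox7a2 and Atp5g1 turned sign without cKO replicate 2. That of Ndufb8, which was named for its small p, lay between 0.28 and 0.57 in all 20 alternatives. Other named members also kept their sign in all of them, such as Ndufs3 (0.22 to 0.53), Atp5g3 (0.23 to 0.66), Sdhd (0.16 to 0.41) and Cyc1 (0.044 to 0.30).

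**Figure D5:**
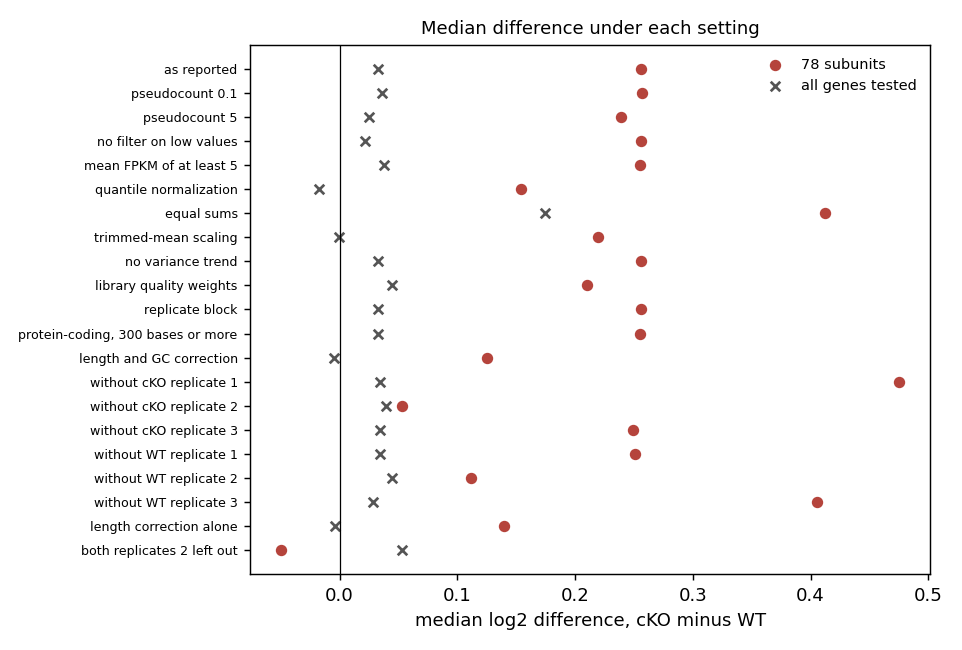
Median log2 difference, cKO minus WT, over the 78 subunits (circles) and over all genes tested (crosses) as reported and under each of 20 alternatives, 1 row each. The subunits' median lies above that of all genes in every row but the last, where cKO 2 and WT 2 are both left out and it is -0.050.

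Markers of other cells and of division also differed between these libraries, and their part in the subunits' values was not tested. The summed level of 6 erythroid markers was 252, 473 and 514 FPKM across the cKO libraries and 229.9, 94.4 and 229 FPKM across the WT libraries. This sum was lowest in WT 2, as the subunits were, but highest in cKO 3. Of its tested markers 5 of 5 were above 0, against 55% of all genes tested. Of these, 3 were higher without overlap of the groups (60% against 6.96% of all genes). The globin transcripts are short, at 554 to 703 bases, as most subunits are. Alas2, with 1892 bases, stood at 6.88, 6.51 and 8.06 FPKM against 4.86, 2.46 and 0.97 FPKM. It was higher without overlap as well, and lowest in WT 3. The 8 markers of dividing cells, such as Birc5 and Top2a, summed to 144, 100.1 and 133 FPKM against 66.9, 74.8 and 48.9 FPKM, with all 8 above 0 and no overlap of the sums. Among the cKO libraries this sum was lowest in cKO 2, where the subunits were highest. At an unadjusted p under 0.05 (limma), 6 of the 8 markers of dividing cells were higher (75% against 3.59% of all genes). Without overlap of the groups 5 were higher (62.5% against 6.96%), and 0 passed after adjustment. Myeloid markers summed to 92.0, 94.5 and 75.6 FPKM against 58.7, 81.8 and 41.6 FPKM (4 of 4 tested above 0). B cell markers summed to 119, 157 and 149 FPKM against 151, 146 and 106 FPKM (4 of 5), and those of CD8 T and NK cells to 105, 130.1 and 109.9 FPKM against 102, 85.1 and 82.0 FPKM (2 of 3). In the last list Nkg7 was higher without overlap (6.96% of all genes were), and Cd8b1 differed by 0.050 (log2). Klrd1 went the other way, at 0, 0.546 and 0.336 FPKM against 3.46, 1.81 and 1.35 FPKM, lower without overlap (3.75% of all genes were). Levels within these lists were uneven: Cd79b lay between 80.5 and 112 FPKM, Nkg7 between 59.6 and 107 FPKM, Lyz2 between 35.5 and 83.2 FPKM and Cd8b1 between 18.8 and 22.4 FPKM, whereas Cd8a was at most 0.531 FPKM, Ncr1 at most 0.813 FPKM, and Ly6g at 0 in 4 libraries.

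The subunits encoded by the mitochondrial genome lay on both sides of 0. Of 13, 12 were tested, 6 lay above 0, and the median difference was -0.014. The median over these genes was -0.087 in cKO 2 and 0.0030 in WT 2 relative to each gene's mean. The highest was mt-Cytb, the cytochrome b of complex III, at 3311, 3511 and 4161 FPKM against 3173, 3615 and 4053 FPKM. In mt-Co1, the catalytic subunit of complex IV, the values were 2359, 2348 and 3250.0 FPKM against 2088, 2768 and 2820.1 FPKM. The neighbours mt-Co2, mt-Co3 and mt-Atp6 lay between 5.32 and 18.0 FPKM, far under mt-Co1 in every library, and the handling of mitochondrial reads is not given in the sources used here.

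Genes that build and serve the chain were read from lists chosen with earlier results known, and 0 of their genes passed the test (limma, Benjamini-Hochberg), with 1 higher (Coq6, 5.88% of its list against 3.59% of all genes) and 1 lower (Mrpl2, 1.30% of its list against 1.78%) at an unadjusted p under 0.05. Of 49 tested assembly factors, which insert cofactors and join subunits, 39 lay above 0 with a median of 0.19. Coa7, a complex IV factor, stood at 18.6, 30.9 and 29.2 FPKM against 17.6, 9.21 and 20.5 FPKM. Bcs1l, which completes complex III, stood at 10.4, 11.6 and 8.44 FPKM against 6.33, 8.85 and 6.17 FPKM. Coa7 was lowest in WT 2, and the groups overlapped in both genes. The mitochondrial ribosome translates the mitochondrial subunits. Of 77 genes taken as its proteins by symbol alone (Mrpl or Mrps), 56 lay above 0 with a median of 0.11, and cKO 2 was the highest library in 56. Mrpl2, of the large ribosomal subunit, stood at 151, 112 and 178 FPKM against 213, 244 and 176 FPKM. Mrps23, of the small subunit, stood at 134, 187 and 142 FPKM against 98.1, 78.7 and 144 FPKM. The groups overlapped in both, and cKO 2 was the lowest library for Mrpl2 and the highest for Mrps23.

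Of 17 electron carriers and ubiquinone enzymes, 11 lay above 0 with a median of 0.099. Coq6, a hydroxylase of ubiquinone synthesis, stood at 31.7, 27.96 and 34.9 FPKM against 17.3, 18.1 and 25.1 FPKM. All 3 libraries labelled cKO were above those labelled WT, and the difference was 0.64 (standard error 0.187, limma, adjusted p = 0.874). Etfb, a subunit of the flavoprotein that brings electrons from fatty acid oxidation, stood at 255, 231 and 238 FPKM against 190.0, 217 and 193 FPKM, also without overlap. Coq6 and Etfb are named because they had the smallest p of this list. With Pdss1, 3 of its 17 genes were higher without overlap (17.6% against 6.96% of all genes), and 0 were lower (against 3.75%). Of 17 tested regulators of mitochondrial biogenesis, 7 lay above 0 with a median of -0.029. Myc, which drives growth and mitochondrial genes, stood at 72.1, 73.9 and 82.8 FPKM against 97.3, 100.4 and 85.7 FPKM. Twnk, the helicase of mitochondrial DNA, stood at 9.11, 11.7 and 10.2 FPKM against 12.4, 17.1 and 12.0 FPKM. Both were lower without overlap of the groups, and neither passed (limma, adjusted p = 0.925 for each). They too are named for the smallest p of their list. These 2 of 17 regulators are 11.8%, against 3.75% of all genes, and 0 were higher without overlap (against 6.96%).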

How the data were processed

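Members and lists were chosen with earlier results of these data known. Libraries were made with SmartSeq2, per the labels' protocols. FastQC, cutadapt, HISAT2 and the builds NCBIM37 and mm9 are named, without versions, in the submitters' processing notes. The FPKM values were deposited by the authors as 1 table of 36811 genes by 6 libraries. Its annotation, filters and strand setting are not given. A symbol was found for 31840 genes. Lengths and GC content are those of the basic protein-coding transcript of median length in GENCODE M21.

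The 11979 genes whose mean reached 1 FPKM were fitted with limma 3.58.1 (R 4.3.3). The fit used log2(FPKM + 1), a variance trend and no replicate block. Benjamini-Hochberg adjustment covered all genes fitted, with 0.05 as the threshold. Changes of low genes are understated on this scale. The procedure was tested on simulated data. Depth was estimated from the steps between low values of transcripts of at least 2000 bases. It is a scale, not a count of sequenced fragments, and no count test was run. With 3 libraries against 3, an exact permutation test of a single value cannot go below p = 0.1, so none was run.

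Named are, in each complex, the 3 members with the smallest p and the highest member, then paralogs, members below the minimum, 2 genes of each other list and Bach2. The list gene Pet117 found no match. The values of 1 member entered all counts and are not reported here. Of the mitochondrial list, mt-Nd3 and mt-Atp8 had the smallest p, with log2 differences of 1.17 and -0.62 (limma, adjusted p = 0.925 for each). The level of mt-Nd3 was 0 in WT 1 and WT 2. For this list mt-Cytb and mt-Co1 were described in their place. Alternatives changed the pseudocount (0.1 or 5), the minimum (none or 5 FPKM), the scaling (quantile, equal sums, trimmed mean), the trend (none), the weights (library quality), the block (replicate number), the genes (protein-coding, 300 bases or more) or the values (length and GC correction), or left out each library. A length correction alone and leaving out cKO 2 with WT 2 were added after seeing the data. Figures were drawn with matplotlib 3.10.9 and tables joined with pandas 2.3.3 and numpy 2.4.6 in Python 3.11.15.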

Additional observations from a re-analysis of the deposited data

How the results depend on the processing

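No member passed an adjusted p of 0.05 in any of 20 alternatives (limma, smallest adjusted p = 0.355 with library quality weights). The count of all genes that passed, 3 as reported, was 1 with the replicate block, 1 among protein-coding genes of at least 300 bases, 18 with cKO 2 and WT 2 both left out, and between 5 and 15 with 1 library left out. The count of members higher at an unadjusted p under 0.05, 1 as reported, was 0 after quantile normalization, 4 with equal sums, 0 with no variance trend, 6 with quality weights, 0 with the replicate block, 2 with the length correction alone, 0 with cKO 2 and WT 2 both left out (where 1 was lower), and between 0 and 8 with 1 library left out (8 without cKO replicate 1, 3 without WT replicate 3). Equal sums moved the median of all genes from 0.03 to 0.17, that of the 78 members from 0.26 to 0.41 (0.15 after quantile normalization), that of complex II to 0.35 and that of the electron carriers to 0.25.

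With 1 library left out, the median of complex II ran from 0.054 (without cKO replicate 2) to 0.33 and that of the biogenesis regulators from -0.24 (without WT replicate 3) to 0.042. With cKO 2 and WT 2 both left out, the median was -0.0058 in complex III, -0.095 in complex IV, -0.063 for assembly factors and -0.12 for ribosomal proteins.

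Log2 differences of single members changed sign as follows. After quantile normalization Atp5g1 was at -0.037. With equal sums Sdha was at 0.020, Atp5b at 0.056 and Cox7a2l at 0.14. With quality weights Atp5b was at 0.037, Cox7a2l at 0.15 and Atp5g1 at -0.0012. With the length and GC correction Cox4i1 was at -0.057 and Atp5g1 at -0.048, and with the length correction alone at -0.059 and -0.052. With cKO 2 and WT 2 both left out, Ndufa3 was at -0.0050, Sdha at 0.16, Uqcrh at -0.0058, Cox6a1 at -0.050, Cox6c at -0.038, Cox4i1 at -0.099, Atp5b at 0.26, Cox7a2 at -0.50, Cox8a at -0.15, Atp5g1 at -0.34, Atp5g2 at -0.060 and Ndufa4 at -0.049. With 1 library left out, Sdha ran from -0.29 to 0.022, Cox4i1 from -0.030 to 0.19, Atp5b from -0.23 to 0.083, Cox7a2 from -0.22 to 0.71, Cox7a2l from -0.15 to 0.14 and Atp5g1 from -0.15 to 0.29. Beyond the libraries and scaling each alternative changes, the cause was not tested.

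Deviations of same-numbered libraries from their group means correlated at -0.060, -0.18 and -0.017, and of other pairs at up to 0.13. With 3 libraries in each group, such correlations cannot decide whether the replicate numbers pair the libraries. With the replicate block the smallest adjusted p of a member was 1. Depth is an estimate, and 10 members had under 100 fragments in some library. FPKM steps are coarse for short transcripts.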
